A study of Mus musculus with 6 samples.

Results

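Wnt ligands and their secreted inhibitors were examined in mammary gland tissue of Elf5 knockout (KO) and wild-type mice. The 10 genes were the ligands Wnt2, Wnt5a, Wnt5b, Wnt6 and Wnt11, the secreted inhibitors Sfrp1, Sfrp2 and Sfrp4, the dickkopf family member Dkk3, and Axin2. Axin2 is neither a ligand nor secreted. It encodes a cytoplasmic protein and was included as a transcript that Wnt signalling induces. Every probe set whose array annotation gave 1 of these symbols alone was taken, which gave 21 of the 45101 probe sets in the table. The 10 genes were among 18193 with a probe set of their own, and of the 10, 6 had several probe sets and 4 had 1. A probe set is the group of short probes on the array that together report 1 transcript.

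The data came from 3 Elf5 KO glands and 3 wild-type glands, each measured on its own one-colour Affymetrix array. Elf5 is an ETS transcription factor needed for alveolar development. Pregnancy day 17 stands on every sample label, but the design text names lactation day 1, and no stage is assigned here. The labels give no strain and no age, and do not say how Elf5 was disrupted or in which cells. They call the arrays biological replicates. Values are the deposited linear signals in arbitrary units. The number of arrays limits the precision, and no signal of 1 probe set was set against that of another gene, since probes differ in how strongly they bind.

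Wnt proteins are lipid-modified secreted ligands that bind Frizzled receptors with a co-receptor. In the canonical branch they stabilise beta-catenin, which with TCF and LEF factors switches on target genes such as Axin2, a feedback inhibitor. Wnt5a, Wnt5b and Wnt11 are best known for beta-catenin-independent signalling. Secreted frizzled-related proteins bind Wnt ligands outside the cell. In the mouse mammary gland, Wnt signals take part in bud formation, branching and the upkeep of basal stem cells.

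Elf5, the disrupted gene, was checked first. Its signal on probe set 1419555_at was 5616, 4361 and 3128 in KO arrays 1, 2 and 3, against 12011, 8044 and 7244 in wild-type arrays 1, 2 and 3. On probe set 1419556_at it was 3838, 2740 and 640.2 in the KO, against 8744, 8375 and 4285 in wild type. All 3 KO arrays lay below all 3 wild-type arrays on both, as they did for 12.7% of all probe sets tested. A sizeable Elf5 signal was left in every KO array. In the fit described below, the log2 differences were -1.06 (limma adjusted p = 0.174) and -1.83 (limma adjusted p = 0.206), and neither passed. In KO array 1 alone they were -0.66 and -0.82. No source used here says whether the Elf5 probes fall inside the disrupted sequence, so the check is of limited weight.

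RNA quality controls differed between the KO arrays. For Gapdh, the array's 3' control probe set divided by its 5' control, a ratio that grows as RNA degrades, gave 0.802, 3.89 and 13.6 in KO arrays 1, 2 and 3, against 0.833 to 1.09 in wild type. The same quotient for Actb was 1.58, 1.87 and 21.0 in KO arrays 1, 2 and 3, against 1.20 to 2.04 in wild type. KO array 3 was thus outside the wild-type range by both controls, and KO array 2 by Gapdh only. Many results below are also given for KO array 1 alone, the one KO array with both ratios within or below the wild-type range, against the 3 wild-type arrays. That leaves the variation among KO animals unmeasured and sets 1 replicate number against 3. Differences given below with the log2 Gapdh ratio as a covariate are not a separate check. The ratio was raised only in KO arrays 2 and 3, so it is confounded with genotype and the estimate leans on KO array 1. Milk protein genes marked all 6 glands as mammary: the summed signal of 7 of them was 54399 to 94747 in the KO and 70399 to 209700 in wild type.

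Differences are limma estimates on log2(signal + 16), Elf5 KO minus wild type, with the moderated standard error (SE, n = 3 arrays per group). Adjusted p-values are Benjamini-Hochberg over the 27024 probe sets whose mean signal over the 6 arrays reached the 40th percentile. Of the 21 member probe sets 18 passed this filter, covering all 10 genes, and the other 3 (1 each of Wnt5a, Wnt6 and Axin2) were too dim. At an adjusted p under 0.05, 0 of the 18 were called, as were 0 of all probe sets tested (0%). At an unadjusted p under 0.05 the count was 3 of 18 (16.7%), namely both Dkk3 probe sets and 1 of Sfrp1, close to the 17.7% of all probe sets tested. The median difference was 0.21 for the 18 and -0.09 for all probe sets tested. The values that follow describe these 6 arrays.

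**Figure D1:**
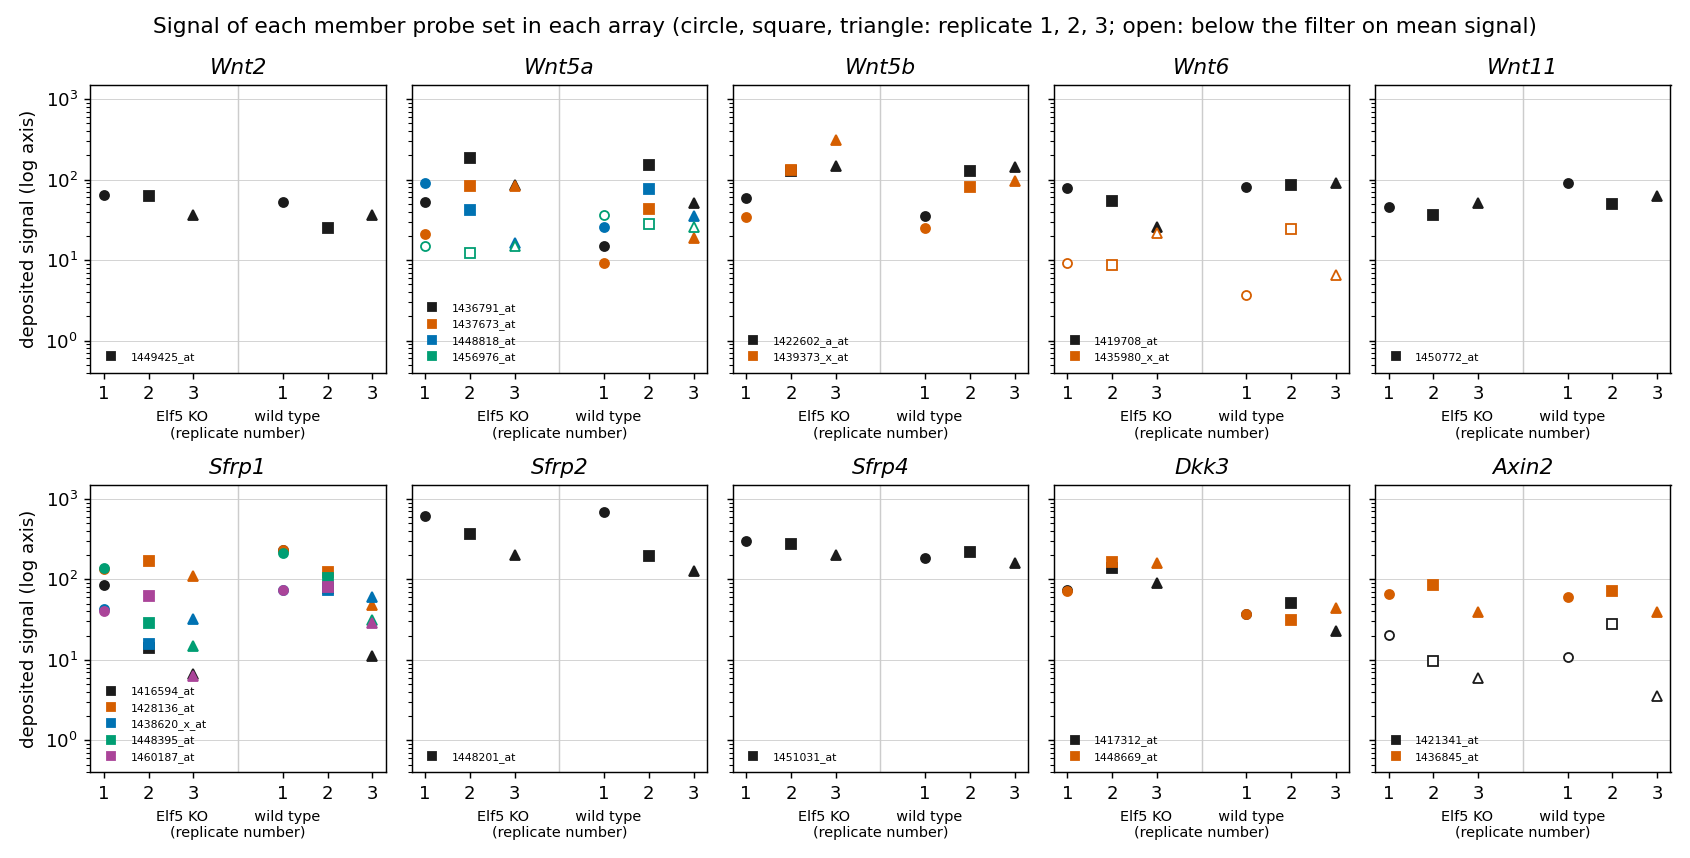
Deposited signal on a log axis for the 21 member probe sets, 1 panel per gene, with Elf5 KO arrays left and wild-type arrays right and 1 colour per probe set. Dkk3 is the only gene with all KO points above all wild-type points on every probe set, and Sfrp2 and most Sfrp1 probe sets overlap between the genotypes.

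Dkk3 was higher in the KO gland on both of its probe sets. Dkk3 encodes a secreted glycoprotein of the dickkopf family that, unlike Dkk1, is not an established blocker of the Wnt co-receptor. On probe set 1448669_at the Dkk3 signal was 72.1, 163 and 158.8 in KO arrays 1, 2 and 3, against 36.9, 31 and 44.3 in wild-type arrays 1, 2 and 3. The lowest KO array was above the highest wild-type array. On probe set 1417312_at Dkk3 read 73.5, 137.3 and 89.1 in the KO, against 37.4, 50.5 and 22.9 in wild type. Here too the groups did not overlap, and KO array 1 had the lowest signal of the KO arrays on both. The 2 probe sets were designed from the same clone sequence, so they are not independent measurements.

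Dkk3 differed by 1.40 ± 0.36 (SE) on probe set 1448669_at, with a 95% confidence interval of 0.58 to 2.22 (limma adjusted p = 0.155), and by 1.13 ± 0.35 on probe set 1417312_at (limma adjusted p = 0.188). Neither passed over all probe sets. Among the alternatives, 2 brought the first probe set past the threshold. Leaving out KO array 1 keeps only KO arrays 2 and 3, which had the raised Gapdh ratios. Without KO array 1 the first probe set differed by 1.74 (limma adjusted p = 0.0454), where 305 of 27024 probe sets were called higher (1.13%). With 1 probe set per gene and the replicate number as a block, an alternative chosen after seeing the data, it passed at a limma adjusted p = 0.0300 (SE 0.31), and 7.57% of 10917 genes were called higher there. With 1 probe set per gene and no block it did not pass (limma adjusted p = 0.0798), while 1.09% of genes were called in either direction. In KO array 1 alone Dkk3 was higher than the 3 wild-type arrays by 0.73 and 0.79 on the 2 probe sets. With the log2 Gapdh ratio as a covariate the Dkk3 differences were 0.92 and 1.00, and neither passed. Across all alternatives the adjusted p of probe set 1448669_at ran between 0.0300 and 0.885.

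Several lists of cell type markers also had a higher signal in the KO than in wild type. The fibroblast list (10 of 10 measured, led by Col3a1 and Dcn) had a summed signal of 23384 to 36636 in the KO and 12203 to 19262 in wild type, and all 10 members had a higher mean log2 level in the KO. Hormone-sensing luminal markers (6 of 8 measured) summed to 1596 to 1760 in the KO against 526 to 797 in wild type. Adipocyte markers (6 of 8) summed to 23973 to 35725 in the KO against 18324 to 21241 in wild type, with 5 higher and 1 lower. Immune markers (6 of 7) summed to 3232 to 6400 in the KO against 1601 to 2792 in wild type. All 6 skeletal muscle markers had a higher mean log2 level in the KO, with a median difference of 1.39. Their sums overlapped, at 1124 to 7305 in the KO against 365 to 4078 in wild type. No marker of these lists was listed at 0 in any array. Within the KO, array 1 had the highest fibroblast and adipocyte sums and the lowest Dkk3 signal. Each sum follows its most abundant genes. Of the 10 fibroblast markers 6 were highest in KO array 1, namely Col1a1, Col1a2, Col3a1, Dcn, Lum and Thy1. Another 2, Pdgfra and Pdgfrb, were lowest there. The part of any of these cell types in the Dkk3 difference was not tested, and in whole tissue a change in cell number and a change in RNA per cell cannot be told apart.

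**Figure D2:**
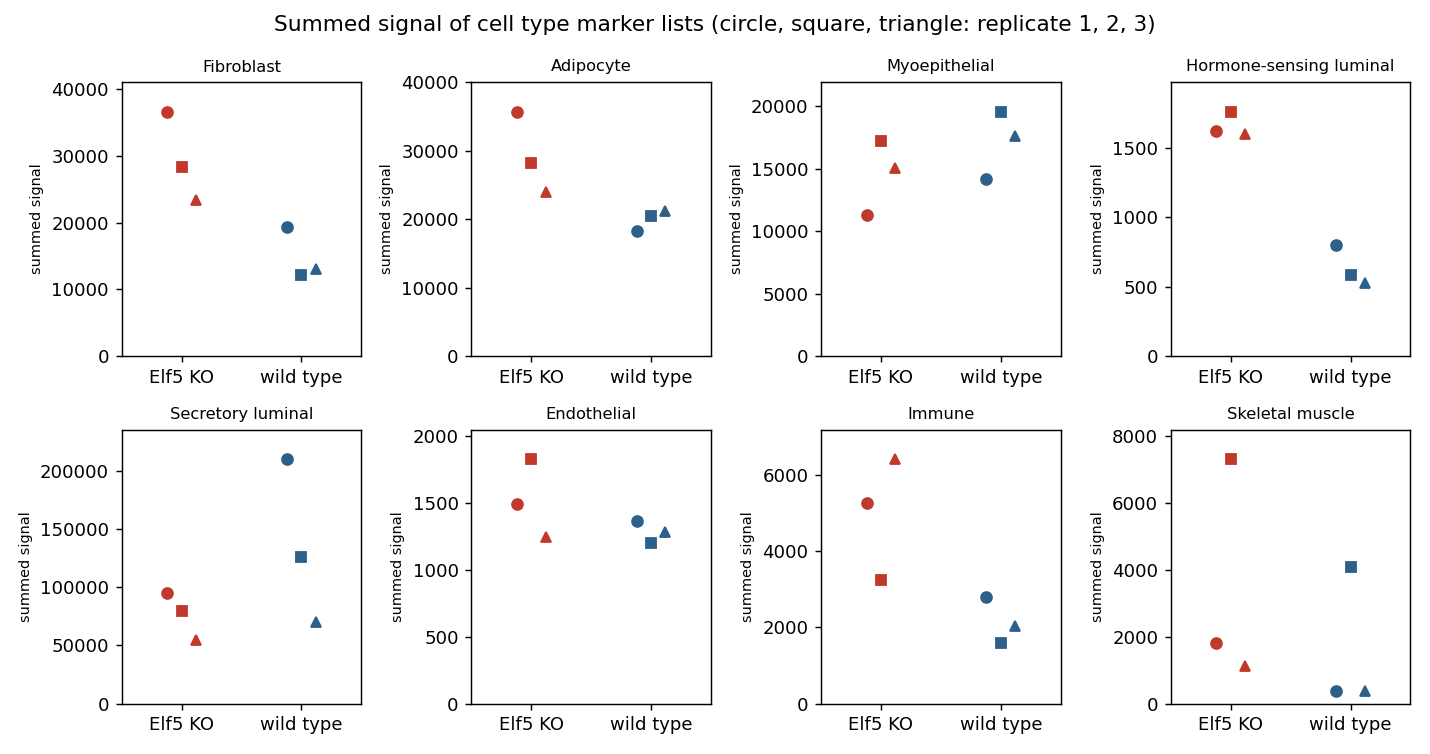
Summed deposited signal of 8 cell type marker lists, Elf5 KO left and wild type right, with 1 point per array and the axis starting at 0. The KO arrays lie above all wild-type arrays for fibroblast, adipocyte, hormone-sensing luminal and immune markers, and overlap them for the other 4 lists.

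By the rule for likeness, the genes whose levels followed Dkk3 probe set 1448669_at most closely over the 6 arrays were Dop1a, Niban1 and Tcaf1, with Pearson r of 0.999, 0.998 and 0.996. Dop1a read 84.6, 152.2 and 146 in KO arrays 1, 2 and 3, against 56.4, 51.7 and 66.4 in wild-type arrays 1, 2 and 3. This likeness is a description over 6 points that share the split into groups, picked out of 27024 probe sets.

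Sfrp1, which encodes a secreted frizzled-related protein that binds Wnt ligands, had 5 probe sets, and 4 of them read lower in the KO. The smallest p was that of probe set 1438620_x_at, with 42.9, 15.9 and 32.6 in KO arrays 1, 2 and 3, against 74.2, 73.1 and 60.1 in wild-type arrays 1, 2 and 3. The groups did not overlap, and the difference was -0.91 ± 0.33 (limma adjusted p = 0.224). The ending of its name marks probes that may also bind other transcripts, so this signal may not be Sfrp1 alone.

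On Sfrp1 probe set 1448395_at the signal was 137.8, 28.6 and 14.7 in the KO, against 214.1, 104.4 and 31.6 in wild type. Both groups were highest in the array numbered 1 and lowest in the array numbered 3, and they overlapped. Probe set 1416594_at had the same order, at 85.1, 14.1 and 6.7 in the KO and 228.5, 77.7 and 11.2 in wild type. These 2 probe sets differed by -0.88 ± 0.70 and -1.06 ± 0.80, and in KO array 1 alone by 0.49 and 0.24. Set against wild-type array 1 only, KO array 1 differed by -0.58 and -1.27, and the pairs numbered 2 and 3 were lower in the KO as well.

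Probe set 1460187_at of Sfrp1 read 40.3, 61.8 and 6.3 in the KO and 72.8, 80.7 and 28.6 in wild type (-0.66 ± 0.51). The remaining one, 1428136_at, went the other way, with 134.3, 167.4 and 109.5 in the KO, against 229.3, 122.9 and 48.2 in wild type (0.22 ± 0.48). It had the highest mean signal of the 5 and stood for Sfrp1 in the fits with 1 probe set per gene. The 5 Sfrp1 probe sets thus disagreed in direction, and none passed. Secretory luminal markers also read lower in the KO, all 7 of them, with a median difference of -0.66. Myoepithelial markers summed to 11312 to 17204 in the KO and 14181 to 19585 in wild type, and did not share 1 direction. Of the 9, 4 were higher in the KO and 5 lower. The part of either list in the Sfrp1 values was not tested.

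Sfrp2 and Sfrp4 encode further secreted frizzled-related proteins. Sfrp2 read 621.1, 367.4 and 201.7 in KO arrays 1, 2 and 3, against 679.6, 197.2 and 128.1 in wild-type arrays 1, 2 and 3. It was highest in array 1 of either genotype, and the groups overlapped (0.44 ± 0.61, limma adjusted p = 0.701). Sfrp4 read 303, 271.8 and 200.9 in the KO, against 183.3, 218.6 and 158.2 in wild type. Only the lowest KO array, number 3, fell within the wild-type range, and the difference was 0.43 ± 0.32 (limma adjusted p = 0.465). In KO array 1 alone Sfrp2 and Sfrp4 differed by 1.20 and 0.67. Set against wild-type array 1 only, KO array 1 differed by -0.13 for Sfrp2 and 0.68 for Sfrp4. The fibroblast markers had a median difference of 1.21, and their part in the Sfrp2 and Sfrp4 values was not tested.

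Among the ligands, Wnt6 was lower in every KO array on 1 probe set. Wnt6 is a ligand that can signal through beta-catenin. On probe set 1419708_at it read 78.5, 54.5 and 26.1 in KO arrays 1, 2 and 3, against 81.8, 85.9 and 90.4 in wild-type arrays 1, 2 and 3. The KO values did not overlap the wild-type values, and among KO arrays they were lower the higher the Gapdh ratio was. The part of RNA quality was not tested. The difference was -0.64 ± 0.36 (limma adjusted p = 0.358), but -0.11 in KO array 1 alone and -0.10 with the Gapdh ratio as a covariate. The last 2 values are not independent, since the ratio was raised only in KO arrays 2 and 3. A dimmer Wnt6 probe set, 1435980_x_at, read 8.7 to 22 in the KO and 3.7 to 24.4 in wild type and was not tested.

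Wnt11, a ligand of the beta-catenin-independent branch, read 46.2, 35.9 and 51.5 in the KO, against 91.8, 49.7 and 62.3 in wild type. KO array 3 lay just above wild-type array 2, and the difference was -0.45 ± 0.32 (limma adjusted p = 0.450). It was of like size in KO array 1 alone, at -0.40. Wnt2, a ligand of the mammary stroma, read 63.6, 62.7 and 36.7 in the KO, against 52.4, 24.7 and 36.3 in wild type. The groups overlapped (0.39 ± 0.34, limma adjusted p = 0.524).

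Wnt5a, which inhibits mammary branching in mice, had 4 probe sets that did not give 1 answer. On 1437673_at it read 21.2, 83.6 and 82.8 in KO arrays 1, 2 and 3, against 9.1, 43.6 and 18.6 in wild-type arrays 1, 2 and 3, and on 1436791_at 52.1, 188.1 and 86.3 in the KO, against 14.9, 151 and 50.9 in wild type. On both, array 1 was the lowest of either genotype, and the groups overlapped. The differences were 0.94 ± 0.48 (limma adjusted p = 0.328) and 0.68 ± 0.62 (limma adjusted p = 0.553), and -0.0026 and -0.043 in KO array 1 alone. Within replicate number 1 they were 0.57 and 1.14.

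Wnt5a probe set 1448818_at read 91, 42.1 and 16.5 in the KO and 25.6, 77.5 and 34.9 in wild type, a difference of 0.01 ± 0.49. The fourth, 1456976_at, was under the filter and read lower in every KO array, at 14.8, 12.3 and 14.9, against 36.2, 27.8 and 26 in wild type. Without a filter it differed by -0.61 ± 0.28 (limma adjusted p = 0.354). No single direction for Wnt5a can be read from these 4 probe sets.

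Wnt5b, a close relative of Wnt5a, read 34, 132.7 and 311.1 on probe set 1439373_x_at in KO arrays 1, 2 and 3, against 24.7, 80.2 and 95.4 in wild-type arrays 1, 2 and 3. The ending of this probe set's name marks possible cross-binding. Array 1 was lowest and array 3 highest in either genotype, and the groups overlapped (0.83 ± 0.66, limma adjusted p = 0.499). On probe set 1422602_a_at it read 58.6, 126.3 and 147 in the KO, against 35.5, 127.1 and 141.5 in wild type (0.19 ± 0.50). Against the 3 wild-type arrays, KO array 1 alone differed by -0.60 and -0.49, opposite to the full comparison, whereas against wild-type array 1 it differed by 0.30 and 0.53.

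**Figure D3:**
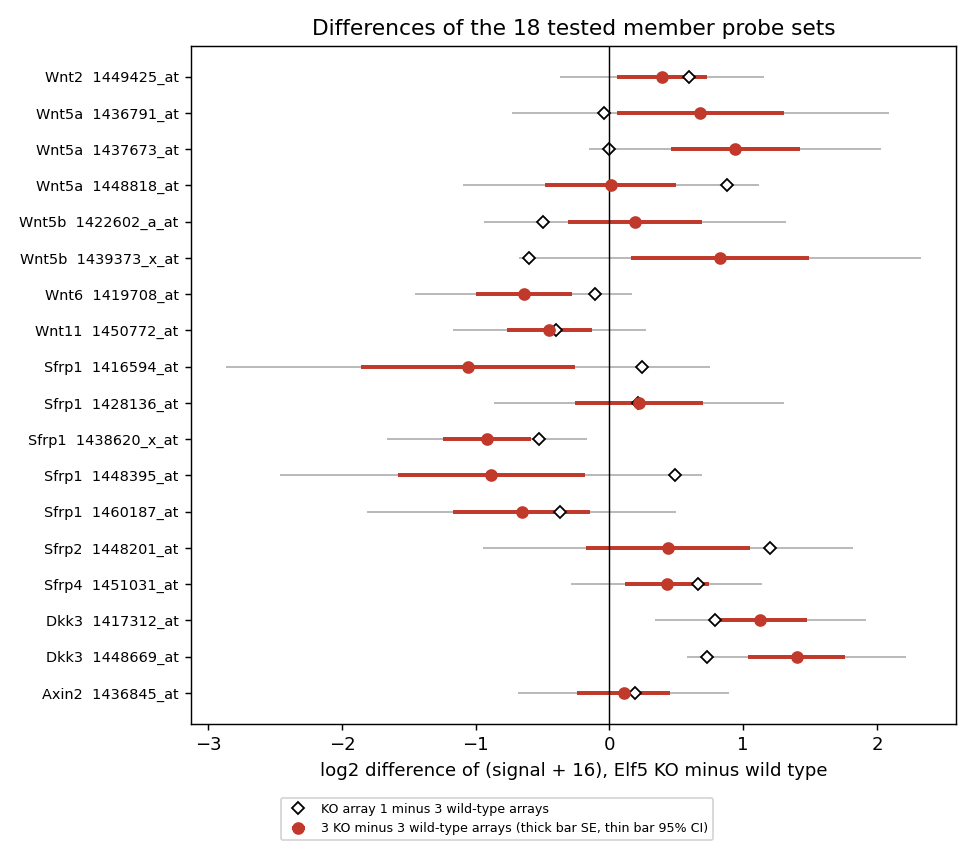
Log2 difference, Elf5 KO minus wild type, of the 18 tested member probe sets (red, with SE and 95% confidence interval) and the same for KO array 1 alone (open diamonds). The intervals of both Dkk3 probe sets and of Sfrp1 1438620_x_at leave out 0 before adjustment, and 6 diamonds lie on the other side of 0 from their red point.

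Axin2 served as the transcriptional readout of canonical signalling. Its tested probe set, 1436845_at, read 66.1, 85 and 39.5 in KO arrays 1, 2 and 3, against 59.9, 72.3 and 39.1 in wild-type arrays 1, 2 and 3. The ranges nearly coincided, and the difference was 0.11 ± 0.35 (limma adjusted p = 0.881). Its 95% confidence interval ran from -0.69 to 0.90, so changes of that size in either direction are not excluded by these 3 arrays per group. The second Axin2 probe set, 1421341_at, read 5.9 to 20.2 in the KO and 3.6 to 27.7 in wild type and was too dim to test.

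The promoter sequences of 6 of the 10 genes were in RefSeq's table (GRCm38.p6), with 9 start sites between them. Those of Axin2 and of Wnt11 are shown because Axin2 is the pathway's readout and the first of 2 annotated Wnt11 starts holds a match to the TCF/LEF motif. Each is the 250 bases before the annotated start, 5′ to 3′ on the gene's strand, at chr11:108920099-108920348 for Axin2 and chr7:98834862-98835111 for the first Wnt11 start, both on the plus strand. Capitals mark matches to CTTTGAT (TCF/LEF) or AGGAAG (ETS) or to their reverse complements.
Axin2: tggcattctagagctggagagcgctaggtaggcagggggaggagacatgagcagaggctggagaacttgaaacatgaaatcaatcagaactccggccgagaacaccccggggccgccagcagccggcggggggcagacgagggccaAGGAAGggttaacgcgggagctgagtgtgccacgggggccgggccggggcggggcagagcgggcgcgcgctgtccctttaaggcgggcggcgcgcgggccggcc
Wnt11: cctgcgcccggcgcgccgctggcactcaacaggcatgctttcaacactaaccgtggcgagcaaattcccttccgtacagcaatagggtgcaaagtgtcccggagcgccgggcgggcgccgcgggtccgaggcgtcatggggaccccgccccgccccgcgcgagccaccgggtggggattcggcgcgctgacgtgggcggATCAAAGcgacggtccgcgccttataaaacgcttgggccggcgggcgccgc

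The Axin2 window held 1 match to the ETS letters and 0 to the TCF/LEF letters, and the Wnt11 window shown 1 match to the TCF/LEF letters and 0 to the ETS letters. The window of the second Wnt11 start, which is not shown, held 0 matches to the TCF/LEF letters and 1 to the ETS letters. Over the 9 member windows 2 held the TCF/LEF letters and 3 the ETS letters, in either orientation, against 3.21% and 29.5% of all 32851 promoter windows of the same length. The second TCF/LEF match lay in a start site of Wnt5b. A match describes letters only, and these arrays hold no measure of factor binding.

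The labels give a replicate number without saying what it marks. Deviations from the group means of KO and wild-type arrays of the same number correlated at 0.39, 0.27 and 0.25 over the probe sets tested, for numbers 1, 2 and 3. Between different numbers the correlations ran from -0.44 to 0.21. Deviations from a mean of 3 arrays cancel out within a group, so some matching of KO to wild-type arrays tends to correlate positively. These values therefore cannot show that the numbers mark pairs. Compared within a number, 8 of 18 member probe sets were higher in the KO for all 3 numbers (44.4%, against 23% of all probe sets tested) and 6 were lower for all 3 (33.3%, against 28.5%). The 8 were both of Dkk3, 2 of Wnt5a and 1 each of Wnt2, Wnt5b, Sfrp4 and Axin2, and the 6 were 4 of Sfrp1 and 1 each of Wnt6 and Wnt11.

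Dkk3 probe set 1448669_at differed by 0.74, 1.93 and 1.54 within numbers 1, 2 and 3. Sfrp1 probe set 1448395_at differed by -0.58, -1.43 and -0.63, and Axin2 by 0.11, 0.19 and 0.01. With the number as a block, 0 of 18 passed (lowest limma adjusted p = 0.0806, Dkk3), and 7 of 18 had an unadjusted p under 0.05, where 26.1% of all probe sets tested did. Without regard to number, 2 of 18 were non-overlapping and higher in the KO (11.1%, against 11.9% of all probe sets tested) and 2 non-overlapping and lower (11.1%, against 12.7%).

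**Figure D4:**
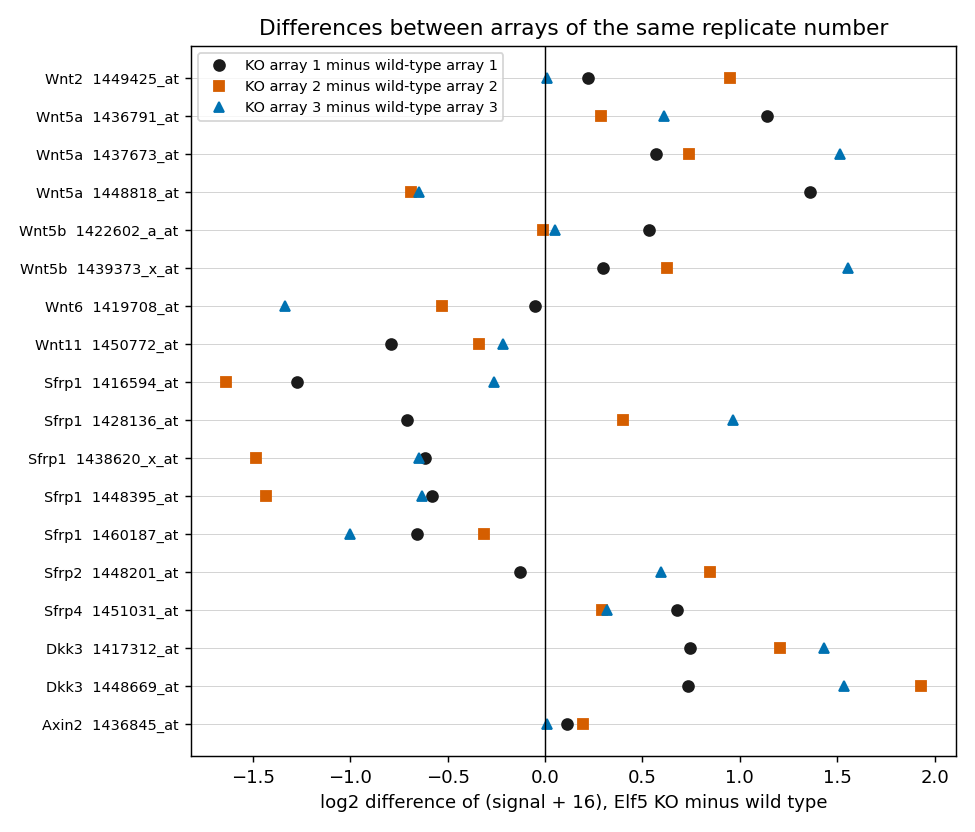
Log2 difference between the KO and the wild-type array of the same replicate number for the 18 tested member probe sets. All 3 symbols lie right of 0 for 8 probe sets, both Dkk3 probe sets among them, and left of 0 for 6, with 4 of the 5 Sfrp1 probe sets among them.

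Of 88 other genes of the pathway, 86 had a probe set and 59 had at least 1 that passed the filter, with 112 probe sets in all. None of the 112 passed at an adjusted p under 0.05. At an unadjusted p under 0.05, 17 of the 112 were higher and 7 lower, against a share of 17.7% in either direction over all probe sets tested. Their median difference was -0.04. The genes named here were those with the smallest p in each role, at most 2 per role, with Lgr4 added to the receptors.

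The smallest p-values among these genes were those of receptors and targets. Lgr6, a receptor for R-spondins, read 103.9, 352 and 249.7 in KO arrays 1, 2 and 3, against 19.9, 47.9 and 39.4 in wild-type arrays 1, 2 and 3 on probe set 1436218_at. All KO arrays were above all wild-type arrays (2.18 ± 0.46, limma adjusted p = 0.129), although a second Lgr6 probe set differed by -0.14. Fzd7, a Frizzled receptor, read 422.8, 812.3 and 796.8 in the KO, against 209.7, 217.7 and 265.3 in wild type, again without overlap (1.44 ± 0.35, limma adjusted p = 0.145). A dimmer Fzd7 probe set under the filter went the other way, with 23, 2.7 and 4.2 in the KO, against 32.1, 23.7 and 26.3 in wild type (-0.82 ± 0.33 without a filter). Lgr4, another R-spondin receptor, had the next smallest p in this role and was lower in the KO. Its tested probe set read 586.5, 1163.3 and 913.2 in the KO, against 2105.4, 2508.7 and 1924 in wild type. The groups did not overlap (-1.33 ± 0.33, limma adjusted p = 0.149). The Lgr4 difference was -1.86 in KO array 1 alone and -1.63 with the Gapdh ratio as a covariate. Over the 32 probe sets of receptors and co-receptors, 14 had a positive and 18 a negative difference. Of the 32, 8 were non-overlapping and higher in the KO, against a share of 11.9% over all probe sets tested. Another 2 of the 32 were non-overlapping and lower, against a share of 12.7% over all.

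Cd44, a hyaluronan receptor counted among Wnt targets, read 398.3, 816 and 800.3 in the KO, against 77, 185.5 and 227.2 in wild type (1.98 ± 0.46, limma adjusted p = 0.144). On the other 2 tested Cd44 probe sets the groups overlapped, with differences of 0.31 ± 0.43 and 0.28 ± 0.34. Apcdd1, a membrane-bound Wnt inhibitor that Wnt induces, read 171.8, 425.5 and 861.3 in the KO, against 51.3, 73.8 and 92.2 in wild type (2.27 ± 0.53, limma adjusted p = 0.144), on a probe set whose name marks possible cross-binding. All 5 tested Apcdd1 probe sets had a positive difference, the smallest being 0.25, and a sixth under the filter differed by -0.45 ± 0.31 without a filter. Among the 18 probe sets of feedback and target genes, 11 had a positive and 7 a negative difference, so they did not share 1 direction. In KO array 1 alone Lgr6, Fzd7, Cd44 and Apcdd1 differed by 1.25, 0.84, 1.32 and 1.11. These 4 probe sets passed without KO array 1 (limma adjusted p = 0.0376 to 0.0462), together with Fzd10, which fell by 1.70 there. In that fit, which keeps only the KO arrays with raised Gapdh ratios, 1.13% of all probe sets were called higher and 1.54% lower.

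With 1 probe set per gene and the replicate block, 10 of the 50 other pathway genes tested passed, 6 higher and 4 lower. Of all 10917 genes in that fit, 7.57% were called higher and 4.43% lower. The 6 were Lgr6, Fzd7, Fzd1, the receptor kinase Ror1, Cd44 and Apcdd1. The 4 were Dkkl1, Fzd10, the R-spondin receptor Lgr4 and Rnf43, a ubiquitin ligase that removes Frizzled receptors. Apcdd1 was represented there by another of its probe sets. All 10 had a limma adjusted p between 0.0145 and 0.0474 there. Fzd10, Fzd1, Ror1, Lgr4 and Rnf43 are named because that alternative or the one without KO array 1 called them.

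Among other secreted inhibitors, Dkkl1, a dickkopf-like secreted protein, differed by -1.99 ± 0.74 and read 150.6, 47.6 and 10.2 in the KO, against 619.5, 192.2 and 114.6 in wild type. KO array 1 lay within the wild-type range. Sostdc1, a secreted antagonist of BMP and Wnt signals, read on probe set 1460250_at 92.7, 55.1 and 26.1 in the KO, against 41.7, 4.4 and 3.6 in wild type (1.27 ± 0.51). On its second probe set Sostdc1 read 114.2, 343.4 and 85.7 in the KO, against 99, 55.5 and 44 in wild type, a difference of 1.09 ± 0.50. The groups overlapped on both Sostdc1 probe sets, and the array with the highest KO value differed between them. Of the other ligands, Wnt4, which progesterone induces in the mouse gland, differed by 0.94 ± 0.51 and Wnt8b by -0.61 ± 0.35. The single tested R-spondin probe set, of Rspo1, differed by 0.51 ± 0.46. In KO array 1 alone Dkkl1, Sostdc1 (1460250_at), Wnt4, Wnt8b and Rspo1 differed by -0.63, 1.93, 0.64, -0.42 and -0.048.

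Of the other roles, the transcription factor Lef1 read 43.5, 64.5 and 133.1 in the KO, against 14.4, 35.6 and 18.6 in wild type (1.24 ± 0.41). Its relative Tcf7l2 read 46.7, 61 and 22.8 in the KO, against 117.9, 162 and 67.8 in wild type (-1.14 ± 0.40). Neither pair of groups overlapped on these probe sets. The other 3 tested Tcf7l2 probe sets differed by -0.61 to -0.33 with overlap, and a Lef1 probe set under the filter by -0.27 ± 0.27 without a filter. The scaffold protein Axin1 differed by -1.40 ± 0.50, or -0.46 ± 0.31 on its other probe set, and the transducer Dvl1 by -0.76 ± 0.39, although another Dvl1 probe set differed by 0.40. In the planar polarity branch the cadherin Celsr1 differed by 1.26 ± 0.42 and the formin Daam1 by -0.88 ± 0.28, with 0.33 on another Daam1 probe set. Wls, which carries Wnt ligands to the cell surface, differed by -0.62 ± 0.47 and Porcn, which acylates them, by -0.11 ± 0.32. Adjusted p-values of these 8 genes lay between 0.195 and 0.870. On the first probe set given for each, Lef1, Tcf7l2, Axin1 and Dvl1 differed by 0.65, -1.01, -0.44 and -0.22 in KO array 1 alone. Celsr1, Daam1, Wls and Porcn differed there by 0.59, -0.77, -0.044 and -0.028.

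**Figure D5:**
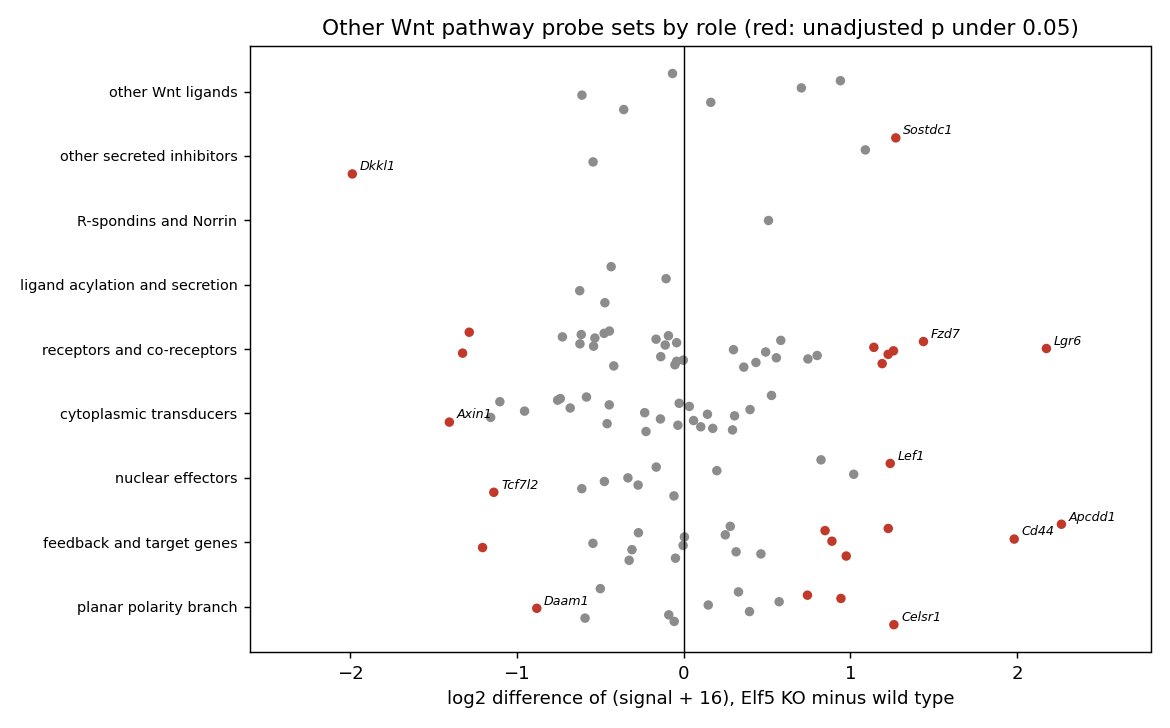
Log2 difference, Elf5 KO minus wild type, of 112 tested probe sets of other Wnt pathway genes grouped by role, 1 point each, with an unadjusted p under 0.05 in red. Red points lie on both sides of 0, with 17 to the right and 7 to the left, and none passed after adjustment.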

How the data were processed

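The study measured gene expression in mammary glands of 3 Elf5 KO and 3 wild-type mice on one-colour Affymetrix arrays from TRIzol-extracted, column-purified total RNA, per the labels' protocols. The deposited values are linear signal intensities and MAS5 and affy are the tools named, per the submitters' processing notes, without versions. Each array had a mean of 150 after trimming 2% at each end, so the deposited scaling was kept. No genome build for the arrays was stated.

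Of 45101 probe sets, 34958 had 1 gene in the platform annotation, 932 several and 9211 none. The 64 controls were left out. Signals were tested as log2(signal + 16), which understates changes of dim genes, with limma 3.58.1 in R 4.3.3 (lmFit, then eBayes with trend) and no block over probe sets with a mean of at least 23.4. The threshold was an adjusted p of 0.05. The fit was tested on simulated data.

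The 10 members, the gene lists and the naming rule (all members, the 2 smallest p per role, the 3 genes most like the leading member) were chosen with earlier results of these data known. Deviations of same-numbered arrays each correlated over 0.1, but so did those of KO array 2 and wild-type array 3 (0.21). The labels do not say that the numbers mark pairs. Fits with the replicate number as a block are given as alternatives beside results they change. Alternatives changed the pseudocount, filter, scaling, trend, block, probe set choice, Gapdh covariate and arrays used.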

Additional observations from a re-analysis of the deposited data

How the results depend on the processing

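The 18 member differences were recomputed under 18 alternatives. Of 299 values 278 kept their direction and side of the threshold, 2 passed it (both Dkk3 1448669_at) and 19 changed sign. Quantile normalization and scaling to a common median changed 0 signs, although quantile normalization moved the median of all probe sets tested from -0.09 to -0.01. The count of member probe sets called was 0 in every alternative but 2. It was 1 with 1 probe set per gene and the replicate block. When each array was left out in turn it was 0 to 1, the 1 being without KO array 1. That fit keeps only the KO arrays with raised Gapdh ratios. For the other pathway probe sets the count was 10 with 1 probe set per gene and the replicate block, and 0 to 5 when each array was left out. The replicate block on every probe set called 0 of both. Over all probe sets 0 were called (4796 at an unadjusted p under 0.05), against 720 without KO array 1, and over genes 119 without and 1310 with the block. All other alternatives called 0 probe sets of the whole table. Staying on the same side of the threshold in those alternatives is therefore no sign that the member results are stable.

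With KO array 1 alone, Wnt5a 1436791_at changed to -0.043, Wnt5a 1437673_at to -0.0026, Wnt5b 1422602_a_at to -0.49, Wnt5b 1439373_x_at to -0.60, Sfrp1 1416594_at to 0.24 and Sfrp1 1448395_at to 0.49. Within replicate number 1 all 6 had the sign of the full comparison. With the Gapdh ratio as a covariate, Wnt5b 1422602_a_at changed to -0.26, Wnt5b 1439373_x_at to -0.36 and Sfrp1 1448395_at to 0.14. A pseudocount of 1 changed Wnt5a 1448818_at to -0.037. Leaving out 1 array in turn gave -0.42 to 0.44 for Wnt5a 1448818_at, -0.32 to 0.54 for Wnt5b 1422602_a_at, -0.29 to 0.68 for Sfrp1 1428136_at, -0.034 to 1.10 for Sfrp2 and -0.088 to 0.34 for Axin2. The cause of these changes was not tested. With 1 KO array left, its spread was assumed to match that of wild type. Many members lay near the array medians of 24.6 to 41.3, where MAS5-type signals are noisy, and 3 were under the filter.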
